A study of Mus musculus with 29 samples.

Results

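Rny1 and Rny3 are the mouse genes for the Y RNAs Y1 and Y3, and they are 2 of the 646 loci with an RPC4 score in the deposited table. They were chosen by name, not by their scores. RPC4 is a subunit of RNA polymerase III (Pol III), so its occupancy by ChIP-seq marks where that polymerase sits. The study asked how Pol III occupancy changes while the liver regrows after partial hepatectomy (PH), the surgical removal of part of the liver. Liver of male C57BL/6 mice aged 12 to 14 weeks, entrained to a light-dark cycle with food only at night, was taken before the operation (TP0) or when 36, 48 or 60 h had passed since it, time points written here as TP36, TP48 and TP60. Each time point had 2 replicate RPC4 libraries with matched input (Rep1 and Rep2, the series 1 and 2 of the labels), each from a pool of liver from 3 mice, so the spread between them is that between pools. The chromatin came from whole liver, in which fewer cells bound at a gene and less binding per cell cannot be told apart. No sample is labelled as sham-operated, so the time after surgery and the regrowth of the liver cannot be told apart. The paper had every operation at the start of the day, so TP36 and TP60 fall at night and TP48 by day. At TP36 and TP60 the effects of PH therefore cannot be told apart from those of time of day and feeding.

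Y RNAs are small noncoding RNAs that fold back so that their 5′ and 3′ ends form a stem. The protein Ro60 binds that stem and the La protein binds the run of uridines at the 3′ end. The Ro60 particles take part in the quality control and turnover of RNA, and in vertebrate cell extracts Y RNAs have been reported to help DNA replication begin. Their genes belong to the small group with a type 3 Pol III promoter, which lies upstream of the start and holds a proximal sequence element and usually a TATA box, whereas tRNA genes carry their promoter boxes inside the transcribed part.

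Both genes lie on chromosome 6 of the NCBI37 (mm9) build, outside annotated protein-coding genes. Rny3 occupies chr6:47731623-47731724 on the plus strand, where GENCODE M1 has a miscellaneous RNA named Y_RNA (ENSMUSG00000064945). Rny1 occupies chr6:47738068-47738179 on the minus strand, where the annotation has another Y_RNA (ENSMUSG00000065701). The genes point towards each other with 6343 bases between their 3′ ends. The nearest protein-coding gene is Pdia4, a protein disulfide isomerase of the endoplasmic reticulum, 7961 bases beyond Rny1 and 14416 bases from Rny3. The deposited table classes both genes as near a Pol II feature, within a distance shorter than these and at which this annotation has no other gene, and the class was not used here. The transcribed parts are shown because they are the targets scored, with the final TTTT and the runs of 7 or more bases that both genes hold in the same order in capitals.

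Rny3: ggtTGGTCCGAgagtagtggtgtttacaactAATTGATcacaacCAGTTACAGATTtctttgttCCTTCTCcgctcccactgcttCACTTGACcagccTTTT

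Rny1: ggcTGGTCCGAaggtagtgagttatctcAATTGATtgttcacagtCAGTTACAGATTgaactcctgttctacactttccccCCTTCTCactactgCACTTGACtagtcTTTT

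The genes are 102 and 112 bases long, and 81 of 112 columns of their alignment were identical (72.3%). The shared run at positions 4 to 11 of both genes and the last shared run overlap the predicted end stem and pair in part with each other. RNAfold, a program that predicts RNA secondary structure, paired base 1 with base 98 in Y3 and with base 108 in Y1. It placed 21 base pairs between the first and the last 30 bases of Y3 and 17 in Y1, with minimum free energies of -27.1 and -34.3 kcal/mol. These are predictions from sequence alone.

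The 110 bases before each start are shown because the promoter of a type 3 gene lies there. Capitals mark the longest run that both stretches hold, of 10 bases, and any TATA from 40 to 16 bases before the start.

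Rny3 upstream, chr6:47731513-47731622, plus strand: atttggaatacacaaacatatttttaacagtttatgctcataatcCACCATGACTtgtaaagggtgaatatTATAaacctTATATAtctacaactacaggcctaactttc

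Rny1 upstream, chr6:47738180-47738289, minus strand: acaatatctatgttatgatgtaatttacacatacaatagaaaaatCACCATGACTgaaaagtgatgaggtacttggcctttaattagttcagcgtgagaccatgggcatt

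The run CACCATGACT stood 65 to 56 bases before the start in both genes, about where a proximal sequence element is usually found. The run was picked as the longest that these 2 stretches share, so both hold it by choice. On either strand, 2 of the 646 upstream stretches held it (0.310%), these 2 alone. That count is no test, since the run came from these genes and an exact match was asked of the rest. The other 11 genes of the type 3 list, described further on, did not hold this exact run. The letters TATA were found from 40 to 16 bases before the start of Rny3, first at 39 to 36 bases, and not in that window of Rny1. On either strand 76 of 646 loci (11.8%) and 6 of the other 11 type 3 genes (54.5%) had them there. GGTTCGA, letters that belong to the inner promoter box of tRNA genes, was in neither Y RNA gene on either strand, against 246 of 433 tRNA genes (56.8%) and 247 of all 646 loci (38.2%). A match is a description of letters, and no match says only that these letters are not in the window.

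Both genes were occupied by RPC4 in all 8 libraries, Rny3 more strongly than Rny1. The RPC4 score is the log2 ratio of fragments in the ChIP to fragments in the input, with a pseudocount, over the gene extended on each side. A locus counts as occupied where its score is above the cutoff that the authors set for the library. Those cutoffs differed between the replicate series, from 0.81 to 0.87 in Rep1 and from 1.33 to 1.55 in Rep2, and the lowest score of either gene stood 1.66 above its cutoff. Fragments that match several places in the genome contributed 0% of either gene's score in each library, although the annotation names 24 genes Y_RNA. The read depth of the libraries is unknown from scores alone.

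**Figure D1:**
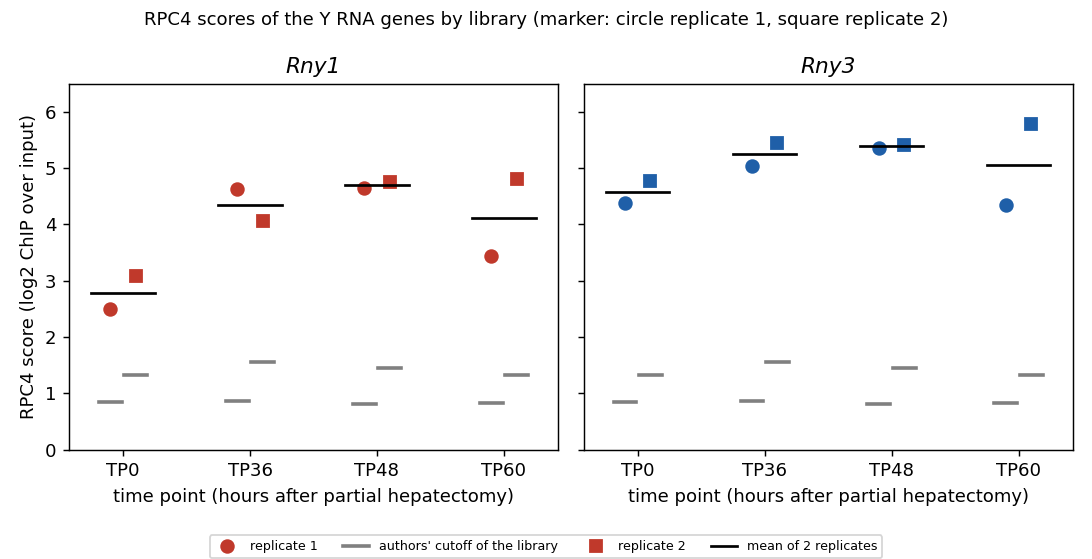
RPC4 scores (log2 ratio of ChIP to input, y axis) of Rny1 (left) and Rny3 (right) by time point, with a circle for Rep1, a square for Rep2, a black line for their mean and grey lines for each library's cutoff. Both genes lie above the cutoffs throughout, and the replicates lie furthest apart at TP60, where Rny1 had 3.44 and 4.81 and Rny3 had 4.35 and 5.78.

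Rny1, the gene for Y1 RNA, had scores of 2.50 and 3.08 before PH (Rep1 and Rep2), 4.64 and 4.05 at TP36, 4.64 and 4.76 at TP48, and lastly 3.44 and 4.81 at TP60. All 6 libraries after PH lay above both TP0 libraries, with TP60 Rep1 the lowest of the 6. As ratios, ChIP exceeded input 5.64- and 8.47-fold at TP0 and 24.9- and 27.1-fold at TP48. The mean scores were, in order of time, 2.79 ± 0.41, 4.35 ± 0.41, 4.70 ± 0.086 and 4.12 ± 0.97 (SD, n = 2 each). From low to high the order was TP0, TP60, TP36 and TP48, and of the neighbours in it only TP0 and TP60 differed by the limma test.

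Rny1 rose at each time after PH on the scores as deposited, although its direction turned at TP36 and TP60 when each library was centred on the median of occupied or of all loci, and at TP48 when centred on that of occupied loci. At TP60 the turned change of Rny1 passed the threshold as a decrease, at -0.91 (limma q = 0.00206) by occupied loci and -0.60 (q = 0.0345) by all loci. The scores of all 646 loci were fitted together with limma, each time point having its own mean, and a locus was called changed when its Storey q was under 0.05 and it was occupied in a library of the time points compared. At TP36 the Rny1 score was 1.56 higher than at TP0 (95% interval 0.42 to 2.69, 2.94-fold, q = 0.0334), against a background of 29% of occupied loci called. At TP48 it was 1.91 higher (0.78 to 3.04, 3.76-fold, q = 0.00911), against 51.5% of loci called. At TP60 it was 1.33 higher (0.20 to 2.46, 2.52-fold, q = 0.0326), against 57.3% called. The 3 comparisons share the TP0 libraries. On the deposited scale every call in these 3 comparisons was upwards, so a call of Rny1 at TP48 or TP60 was shared by more than 50% of the occupied loci. With libraries centred on the median of occupied loci, 64, 78 and 85 loci were called higher and 354, 371 and 368 lower at TP36, TP48 and TP60. Centred on all loci, 63, 78 and 85 were called higher and 325, 252 and 296 lower, and with the median deviation of occupied loci from their own means set equal between libraries 84, 97 and 138 higher and 18, 30 and 82 lower.

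The calls of Rny1 rested on few libraries and on the scaling. With median deviations set equal, the changes of Rny1 were 0.62, 0.73 and 0.0077 (q = 0.101, 0.0586 and 0.233). Without TP0 Rep1 or TP0 Rep2 no call was left at any time (q from 0.0665 to 0.172). The TP36 call was also lost without TP36 Rep1 (q = 0.166) or either TP48 library (0.0635), the TP48 call without TP48 Rep2 (0.0905), and the TP60 call without either TP48 library (0.0561) or TP60 Rep2 (0.349), which left a change of 0.65. By Benjamini-Hochberg adjustment the call remained at TP48 (0.0237) and not at TP36 (0.0656) or TP60 (0.0744).

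With the 6 libraries after PH pooled, the mean Rny1 score was 1.60 higher than at TP0 (4.39 against 2.79). The 2-sided exact permutation p was 0.0357, the smallest that the 28 splits of 8 libraries allow, and 0.0476 after Benjamini-Hochberg adjustment over the 4 such tests run. With the replicate series as a block it was 0.0625, the smallest that design allows. The pooled change of Rny1 was -0.42 and -0.19 after centring on the median of occupied and of all loci. With median deviations set equal it was 0.45 (exact p = 0.214). Between the later time points, no change of Rny1 was called. TP48 exceeded TP36 by 0.36 (-0.78 to 1.49), and TP60 differed from TP36 by -0.22 (-1.36 to 0.91) and from TP48 by -0.58 (-1.71 to 0.55). The limma fit called 0% of loci in each of these 3 comparisons, with 5, 7 and 15 at an unadjusted p under 0.05 and 0 by Benjamini-Hochberg.

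Rny3, the gene for Y3 RNA, had scores of 4.38 and 4.77 before PH (Rep1 and Rep2), 5.04 and 5.44 at TP36, 5.36 and 5.41 at TP48, and lastly 4.35 and 5.78 at TP60. Of the 6 libraries after PH, 5 lay above both TP0 libraries and TP60 Rep1 lay just below both, so the groups overlap. ChIP exceeded input 20.8- and 27.4-fold at TP0, 41.1- and 42.5-fold at TP48, and 20.4- and 54.9-fold at TP60. The mean scores were 4.58 ± 0.28, 5.24 ± 0.28, 5.38 ± 0.033 and 5.06 ± 1.01 in order of time (SD, n = 2 each). The order of the means was the same as that of Rny1, and no neighbours in it differed beyond the test.

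On the scores as deposited no change of Rny3 passed the test, whereas with libraries centred on the median of occupied or of all loci Rny3 was called lower at all 3 times. The differences from TP0 were 0.67 at TP36 (-0.44 to 1.78, q = 0.203), 0.81 at TP48 (-0.30 to 1.92, q = 0.0936) and 0.49 at TP60 (-0.62 to 1.60, q = 0.199). These intervals hold both no change and a change of the size of Rny1, and a p that misses the threshold does not show that Rny3 stayed the same. Pooled over the 6 libraries after PH the score was 0.65 higher than at TP0 (exact permutation p = 0.214). All 4 differences were below 0 in each scaling alternative. Centred on occupied loci they were -1.15, -1.21 and -1.75 at TP36, TP48 and TP60 (limma q = 0.0047, 0.00227 and 0.000338), and centred on all loci -1.05, -0.91 and -1.45 (q = 0.00452, 0.0119 and 0.000369). The pooled difference was then -1.37 and -1.14, each with an exact permutation p of 0.0357, the smallest possible. With median deviations set equal, the difference at TP60 alone passed (-0.84, q = 0.0365). Without TP60 Rep1, which had the lowest Rny3 score of the 8 libraries, the TP60 difference was 1.20 (q = 0.0256), and without TP60 Rep2 it was -0.23. The differences of Rny3 between the later time points were 0.14 (TP48 minus TP36), -0.18 (TP60 minus TP36) and -0.32 (TP60 minus TP48), none called.

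The 2 genes were then compared within each library, where a shift of all loci of the library cancels out. Rny3 scored above Rny1 by 1.88 and 1.69 before PH, 0.41 and 1.39 at TP36, 0.72 and 0.65 at TP48, and then 0.91 and 0.97 at TP60. The gap was above 0 in all 8 libraries and was widest in both TP0 libraries. In ratios, Rny3 exceeded Rny1 by 3.68- and 3.23-fold at TP0 and by 1.32- to 2.62-fold after PH. Over the 8 libraries the gap averaged 1.08 (2-sided exact sign-flip permutation p = 0.0078, the smallest that 256 sign patterns allow, adjusted p = 0.0313). The scored windows were 402 bases for Rny3 and 412 for Rny1. Since occupancy is a ratio to input over each window, this compares occupancy and not RNA.

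**Figure D2:**
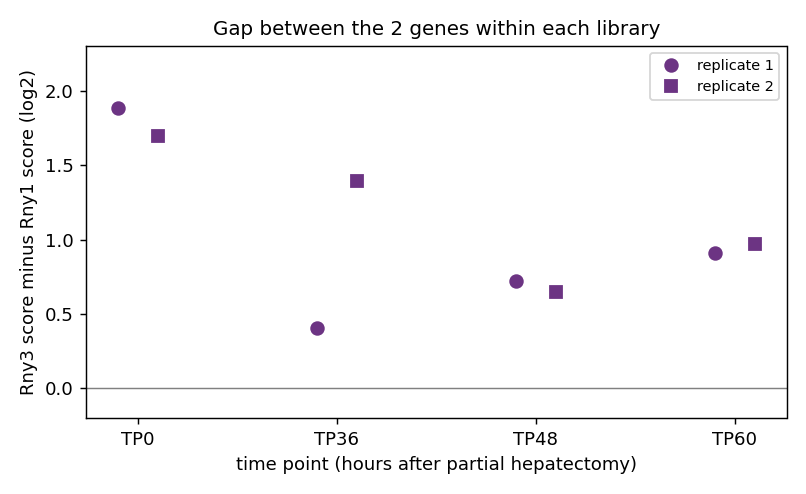
RPC4 score of Rny3 minus that of Rny1 within each library (log2, y axis) by time point, with a circle for Rep1 and a square for Rep2. The gap was 1.88 and 1.69 at TP0 and between 0.41 and 1.39 in the 6 libraries after PH.

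The gap between the genes narrowed after PH, from a mean of 1.79 at TP0 to 0.84 in the 6 libraries after it. All 6 lay below both TP0 libraries. The change of -0.95 had an exact permutation p of 0.0357, the smallest that 28 splits allow, and an adjusted p of 0.0476. With the replicate series as a block the exact p was 0.0625, the smallest that design allows. A shift common to all log2 scores of a library cannot turn the change of the gap, since it is taken within a library. A scaling that varies with the level of the score would not cancel, and was not tested. Without either TP0 library the change was -0.85 or -1.04 and the exact p was 0.143, the smallest that 7 splits allow. Within single replicates the Rny1 difference from TP0 was 2.14 (Rep1) and 0.97 (Rep2) at TP36, 2.14 and 1.68 at TP48, and 0.94 and 1.72 at TP60. The same differences of Rny3 were 0.66 and 0.67, 0.98 and 0.63, and -0.03 and 1.00. The difference of Rny1 was the larger in all 6 of these pairs. Loci near the TP0 score of Rny1, described further on, had median changes of 1.33, 1.46 and 1.83 at TP36, TP48 and TP60. Those near the TP0 score of Rny3 had smaller ones, of 0.74, 1.13 and 1.18. Loci with these TP0 scores thus drew nearer in general, and whether the 2 genes did so by more was not tested.

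Rny1 sat near the middle of the occupied loci and Rny3 above it. Relative to the median of the 492 loci occupied in any library, Rny1 stood between -0.77 (TP60 Rep1) and 0.60 (TP0 Rep2), and Rny3 between 0.14 (TP60 Rep1) and 2.29 (TP0 Rep2). The lead of Rny3 over that median was 1.92 and 2.29 at TP0, then 0.40 and 1.51, 1.08 and 0.71, and 0.14 and 0.56 at the later times in order. Both TP0 libraries had the widest leads. The median itself was 2.46 and 2.49 at TP0 and between 3.93 and 5.22 after PH. The 154 loci occupied in no library had medians between -0.063 and 0.066 in the 8 libraries. By mean score at TP0, Rny3 ranked 131 and Rny1 238 of 646 loci.

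The changes of Rny1 lay in the upper part of those of all occupied loci at TP36 and TP48, and those of Rny3 in the lower part at all 3 times. The median change of occupied loci was 0.96 at TP36, 1.12 at TP48 and 1.22 at TP60. Rny1 ranked 113 of 487 at TP36, 99 of 480 at TP48 and 215 of 487 at TP60. Rny3 ranked 324 of 487, 353 of 480 and 455 of 487. Thus 6.57% of occupied loci had a smaller change than Rny3 at TP60, and 55.9% a smaller one than Rny1.

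**Figure D3:**
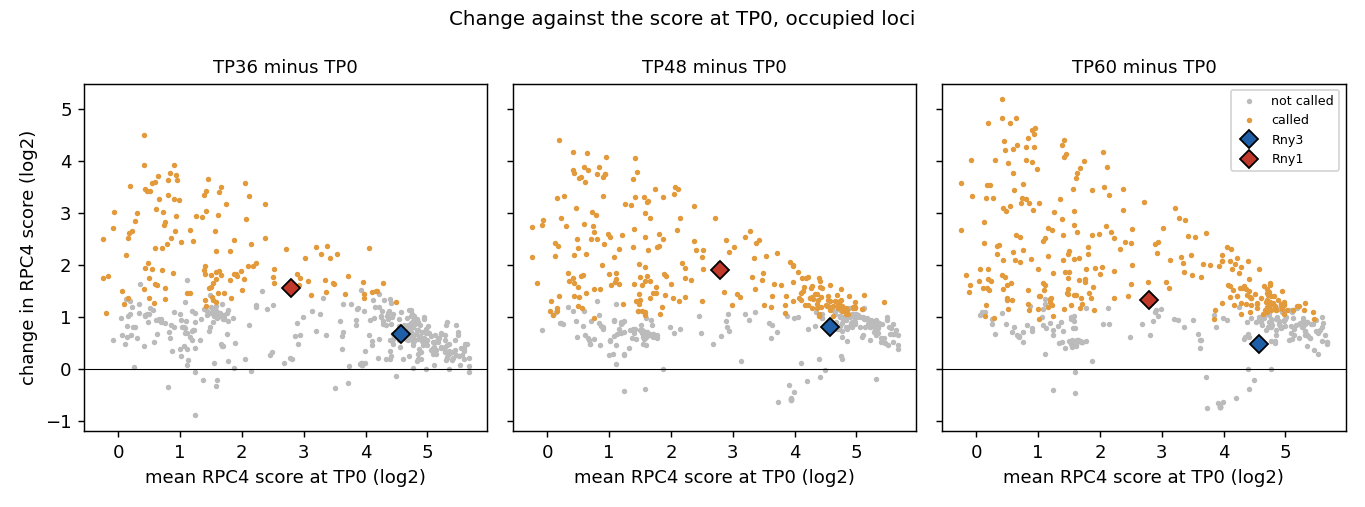
Change in RPC4 score from TP0 (log2, y axis) against the mean score at TP0 (log2, x axis) for each occupied locus, at TP36, TP48 and TP60, with called loci in orange and the Y RNA genes as diamonds. Rny1 starts at 2.79 and changes by 1.56, 1.91 and 1.33, and Rny3 starts at 4.58 and changes by 0.67, 0.81 and 0.49, all 6 changes being below 0 when libraries are centred on the median of occupied loci.

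Loci with a low score at TP0 reach larger changes in this plot than loci with a high one, and both axes use the TP0 libraries. The genes were therefore also set beside loci whose mean TP0 score was within 0.5 of their own, a window chosen after the data were seen. Among 30 such loci the median change was 1.33, 1.46 and 1.83 at TP36, TP48 and TP60, and 13, 13 and 20 of them changed by more than Rny1. Among 123 loci near the TP0 score of Rny3, the medians were 0.74, 1.13 and 1.18, and 70, 107 and 118 of them changed by more than Rny3. Rny1 was thus close to the middle of its neighbours in score at TP36 and TP48, and Rny3 was among the smallest changes of its own at TP48 and TP60. At TP36, TP48 and TP60, 46.7%, 63.3% and 66.7% of the loci near Rny1 in score were called, and 4.07%, 53.7% and 58.5% of those near Rny3.

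The other genes with a type 3 promoter give the nearest comparison by promoter. The list holds 13 loci, chosen by name: the Y RNA genes, 5 genes of the spliceosomal U6 RNA (Rnu6), Rnu6atac of the minor spliceosome, Rmrp and Rpph1 (the RNAs of RNase MRP and RNase P), Rn7sk (7SK, which holds the elongation factor P-TEFb inactive) and 2 genes of selenocysteine tRNA, of which 1 was never occupied. At TP0 Rny3 ranked second in mean score, below Rnu6atac (4.89), and Rny1 ranked 9. Rny3 kept a rank from 1 to 4 in each library and Rny1 from 5 to 9. Of the other 11 listed, 10 were occupied. On the deposited scale 1, 4 and 1 of them were called higher at TP36, TP48 and TP60, and none lower. Among all occupied loci 29%, 51.5% and 57.3% were called. The median changes of those 10 were 0.75, 1.10 and 0.71, beside 0.96, 1.12 and 1.22 over all occupied loci.

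On the deposited scale Rpph1 was the only one of these called at all 3 times. Its changes were 1.82, 1.43 and 1.14 (limma q = 0.00805, 0.0132 and 0.0287). The calls named here are all on that scale. Each centring lowers every change at a time point by the same amount, as for Rny1. Calls of these other genes under the centrings are not given. At TP48 the other calls were Rnu6atac (1.40, q = 0.0297) and the Rnu6 genes that begin at position 79371940 of chromosome 10 (1.24, q = 0.0448) and at position 53704775 of chromosome 12 (1.19, q = 0.0498). Among the 12 occupied type 3 genes, Rny1 had the second largest change at TP36 and the largest at TP48 and TP60, whereas Rny3 ranked 7, 9 and 10. At TP60 the Rnu6 gene at position 79371940 (1.16) and Rpph1 (1.14) came next, with 95% intervals that overlap that of Rny1. Differences in change between these genes were not tested, so the order is one of estimates. The smallest change at all 3 times was that of another Rnu6 gene on chromosome 10, at 0.0125, -0.000365 and 0.152.

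**Figure D4:**
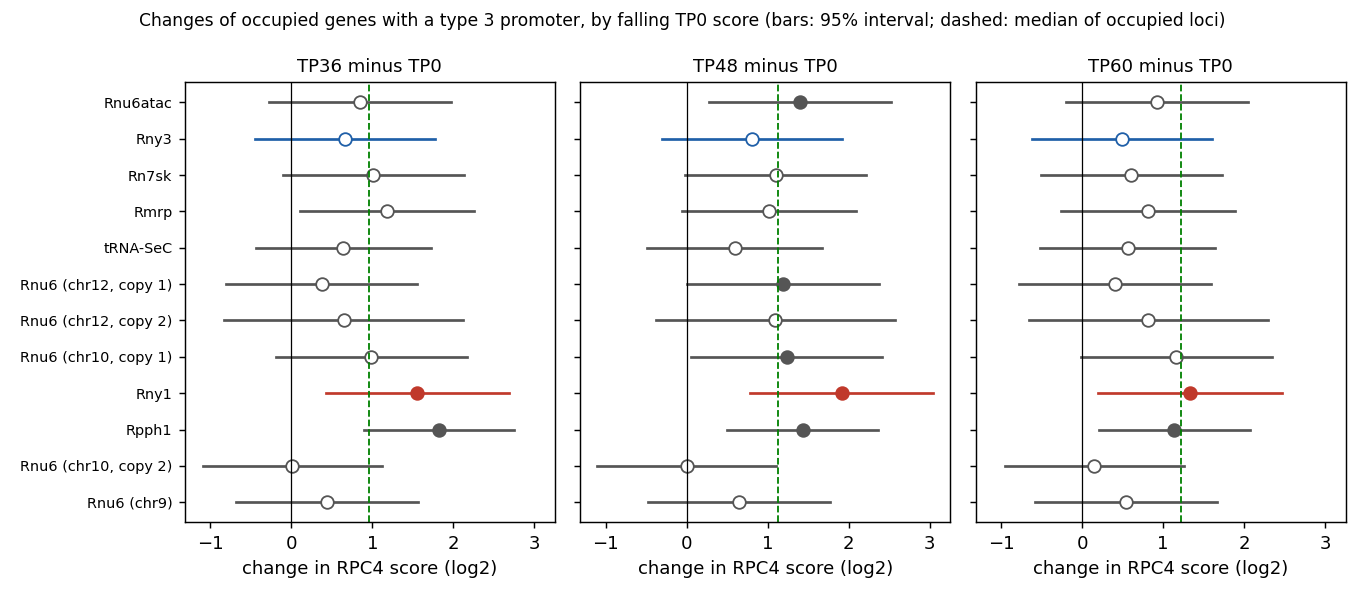
Change in RPC4 score from TP0 (log2, x axis) with its 95% interval for the 12 occupied type 3 genes in falling order of TP0 score, at TP36, TP48 and TP60, with filled points for called changes and a dashed line for the median of occupied loci. Rny1 (red) lies at 1.56, 1.91 and 1.33 and is called at each time on the deposited scale, Rny3 (blue) lies at 0.67, 0.81 and 0.49 and is not called, and centring libraries on the median of occupied loci turned all 6 changes below 0.

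The loci whose pattern over the 8 libraries was most like that of each gene were found by the root-mean-square difference between scores centred on the mean of the locus, among 287 loci occupied in all libraries. For Rny1 they were n-Tv16, a valine tRNA gene on chromosome 13 (0.287), Rnu6atac (0.294) and a B2 SINE, a short interspersed repeat, on chromosome 7 (0.314). For Rny3 they were Rn7sk (0.228), n-Ts21, a serine tRNA gene on chromosome 2 (0.259), and a B3 SINE on chromosome 10 (0.288). Beside these 287 loci Rny3 stood at rank 108 for Rny1 and Rny1 at rank 92 for Rny3, with a difference of 0.490. The 2 genes still correlated over the 8 libraries, with a Pearson r of 0.842. The r of the named loci ran from 0.929 to 0.951 for Rny1 and from 0.852 to 0.924 for Rny3. A shift common to all loci of a library cancels in the root-mean-square difference but not in r. On the deposited scale most occupied loci scored higher after PH, and that shared rise enters each r. The r over all 287 loci is not given, so 0.842 is not shown to be particular to this pair.

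The scored loci nearest to the Y RNA genes are 14 copies of Rn4.5s, the gene of a small rodent-specific RNA, on the same stretch of chromosome 6. The nearest begins at position 47713262 and ends 18266 bases before Rny3. On the deposited scale none of these copies was called at any time, beside 29%, 51.5% and 57.3% of all occupied loci. The median changes of the copies were 0.11 at TP36, -0.50 at TP48 and -0.69 at TP60. In 12 of them over 50% of the score in some library came from fragments that match several places, so single copies are uncertain. The 2 others had median changes of 0.39, 0.44 and 0.31. The number of copies that scored above Rny1 was 13 in both replicates at TP0 and 1 and 13 at TP36 (Rep1 and Rep2). It was 1 and 1 at TP48, and 4 and 1 at TP60. The count in TP36 Rep2 equalled that at TP0, but Rny1 scored 4.05 there, above both its TP0 scores. The median score of the copies was 4.78 in TP36 Rep2 and 3.30 in TP36 Rep1. Between 0 and 2 copies scored above Rny3 in any library.

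**Figure D5:**
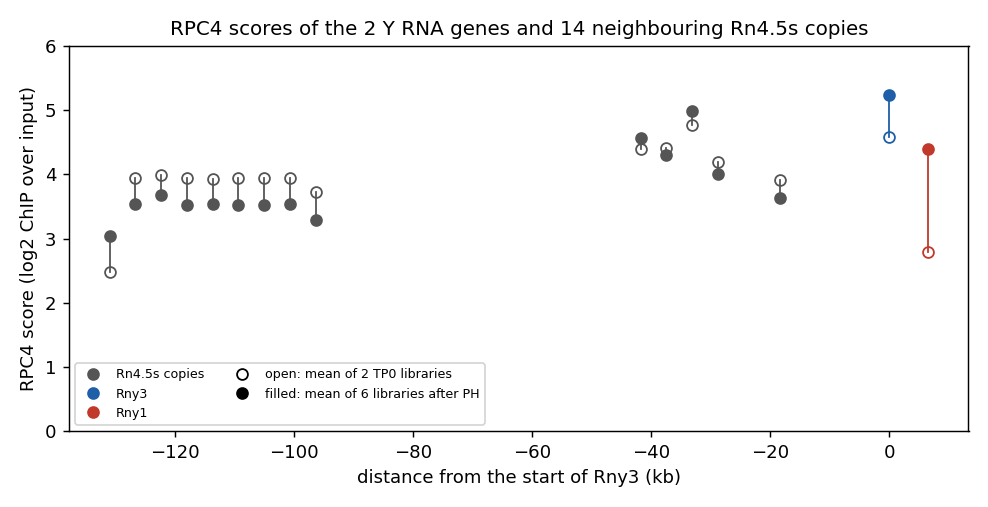
Mean RPC4 score (log2 ratio of ChIP to input, y axis) of 14 Rn4.5s copies, Rny3 and Rny1 against distance from the start of Rny3 (kb, x axis), with open points for the 2 TP0 libraries and filled points for the 6 libraries after PH. On the deposited scale Rny1 has 2.79 and 4.39 and Rny3 4.58 and 5.23, an order that turned for both when libraries were centred on the median of occupied loci.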

How the data were processed

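RPC4 ChIP-seq and input libraries were made from mouse liver at 4 time points in 2 replicates. The authors aligned paired-end reads to NCBI37 (mm9, the build in the submitters' processing notes, which also name bedtools), counted fragments over each locus extended by 150 bases on each side, scaled the totals to their median and deposited log2 ratios of ChIP to input with a pseudocount of 16. The deposited percent columns give the share of a score from fragments with multiple matches. Of the columns of per-sample values, 0 were unmapped. RPB2 and histone libraries were not analysed here.

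Scores were fitted with limma 3.58.1 in R 4.3.3 over 646 loci, with 1 mean per time point and Storey q values. The fit was also run on simulated scores with independent noise and no shift shared by the loci of a library. That run therefore does not test the calls under such shifts. Permutation tests enumerated all arrangements and were 2-sided (numpy 2.4.6). Sequences were read from the NCBI37 genome and folded with RNAfold 2.7.2. The fit without a replicate block was the main one, after the model that the authors state. Rep1 minus Rep2 differences of the loci correlated between time points at r from -0.28 to 0.53. Such a correlation does not show an offset that all loci share, so it cannot decide whether the numbers pair the libraries.

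Rny1 and Rny3 were always named. Other type 3 genes were named where 5 or fewer were called or where they had the highest or lowest change, along with the nearest Rn4.5s copy and the 3 most similar loci per gene, which had no library over 50% multiple-match score. Members and lists were chosen with earlier results of these data known. Alternatives were another adjustment, the replicate block, a fit of 2 time points, 2 centrings, occupied loci alone, no multiple-match loci, trended moderation, cutoffs raised by 0.5 and each library left out. A centring on median deviations and a fit without the Rep1 libraries of TP36 and TP60 were added after seeing the data.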

Additional observations from a re-analysis of the deposited data

How the results depend on the processing

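The direction of change depended on the scaling. On the authors' scale the 154 loci occupied in no library had medians from -0.063 to 0.066 over the 8 libraries. Each centring moves these loci along with the rest. The authors' scale has the TP0 libraries lowest, with a centre over occupied loci of -1.53 and -1.50 relative to the mean of the libraries, or -0.87 for both by median deviations, so that subtracting the centre raised the TP0 libraries. Centred on occupied loci, the changes at TP36, TP48 and TP60 were -0.26, -0.10 and -0.91 for Rny1 and -1.15, -1.21 and -1.75 for Rny3. Centred on all loci they were -0.17, 0.20 and -0.60 for Rny1 and -1.05, -0.91 and -1.45 for Rny3. By median deviations they were 0.62, 0.73 and 0.0077 for Rny1 and -0.27, -0.37 and -0.84 for Rny3. The pooled change after PH was -0.42, -0.19 and 0.45 for Rny1 and -1.37, -1.14 and -0.49 for Rny3 under these centrings in turn. The cause was not tested.

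By Benjamini-Hochberg adjustment the Rny1 changes of 1.56 and 1.33 at TP36 and TP60 lost their calls. Under the first 2 centrings Rny3 was called lower at all 3 times and Rny1 at TP60, and by median deviations Rny3 at TP60. At TP48 (0.81) Rny3 became called higher in a fit of 2 time points and with occupied loci alone. The same held at TP48 without the Rep1 libraries of TP36 and TP60. At TP60 Rny3 became called higher with occupied loci alone (0.49), and without those Rep1 libraries its difference was 1.20. With occupied loci alone the fit called 480 of 480 occupied loci at TP48 and 485 of 487 at TP60. Its calls therefore do not set Rny3 apart from the other loci. With each library left out in turn, the changes at TP36, TP48 and TP60 ran from 1.26 to 1.85, 1.62 to 2.20 and 0.65 to 2.02 for Rny1, and from 0.47 to 0.87, 0.61 to 1.01 and -0.23 to 1.20 for Rny3. The pooled changes ran from 1.31 to 1.89 for Rny1 and 0.46 to 0.85 for Rny3, with 0.83 (exact p = 0.0476) without TP60 Rep1. The gap ran from 0.96 to 1.17 and its change from -1.06 to -0.85.

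With the replicate block the pooled change of Rny1 (1.60) and that of the gap (-0.95) had an exact p of 0.0625, the smallest that design allows, and no limma call of either gene changed. The counts of called loci at TP36, TP48 and TP60 (141, 247 and 279) became 92, 133 and 176 by Benjamini-Hochberg and 253, 480 and 485 with occupied loci alone. Centred on occupied loci they were 418, 449 and 453, at TP36 388 centred on all loci, and at TP48 127 by median deviations and 431 in the fit of 2 time points. Without the Rep1 libraries of TP36 and TP60 they were 431 at TP48 and 461 at TP60. With each library left out they ran from 39 to 332, 47 to 323 and 102 to 387. With 2 pools a time point and no depth in the files, small changes of these genes were not detectable.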
